A study of Mus musculus with 18 samples.

Results

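The genes described here are 40 genes of the cell division cycle, listed by name as 13 genes of DNA replication, 23 genes of mitosis and 4 genes of cycle entry and checkpoint control, out of 14694 genes tested in mouse liver. Each gene was followed through the brightest Affymetrix probe set that the platform annotation gives to it alone. Such a probe set was found for 39 of the 40 genes, since the probe sets of Ccnb1 (cyclin B1) name several genes and were not analysed here. The filter on dim probe sets kept 37 of them, and Tyms (thymidylate synthase) and Cenpe (a kinetochore motor) did not pass it. The tested genes were 12 of replication, 21 of mitosis and 4 of entry and checkpoint.

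The study measured liver RNA on 18 arrays, 3 in each of 6 groups. The wild type group (WT, AIM+/+) and the knockout group (AIM-KO, AIM-/-) both had a C57BL/6 background, and AIM-KO lacks the apoptosis inhibitor of macrophage, a protein encoded by Cd5l. Each genotype was fed normal chow, which the study counts as 0 weeks of a high-fat diet, or a high-fat diet for 12 or 20 weeks, so time on the diet and age cannot be told apart. Sex, age, the make-up of the diet and the way the AIM allele was made are not given in the sources used here. By their titles, the 3 replicates of each group are biological, with no animals named, and p-values measure the spread between these samples. The question was how these genes moved with the diet in each genotype.

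Cell division starts when D-type cyclins and their kinases release E2F transcription factors, which switch on genes for DNA synthesis. The MCM helicase is then loaded at replication origins by Cdc6 and Cdt1 and unwinds DNA for the polymerases. Genes of mitosis are switched on later, and many of them carry a cell cycle homology region (CHR) and CCAAT boxes in their promoters. Hepatocytes of the adult liver are mostly at rest and can return to the cycle after injury, and other liver cells can divide too, so RNA of whole liver does not show which cells carried a transcript. In bulk RNA, fewer cells of a type and less RNA per cell cannot be told apart.

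The promoters of 34 of the 40 genes were found in the RefSeq table of mouse build GRCm38.p6, which gives 250 bases before to 50 bases after each gene start. Aurkb, Ccna2, Ccnd1, Foxm1, Kif20a and Mcm4 were not among them. The motifs searched on both strands were an E2F site (TTTCCCGC, TTTGGCGC, TTTCGCGC or TTTGCCGC), the CHR letters TTTGAA and the box CCAAT. The last 160 bases before the start are printed for 3 replication genes and 3 mitosis genes that rose with the diet and for Tk1, the replication gene that moved the other way. Capitals mark matches of any of the 3 motifs on either strand.
Mcm5, chr8:75109349-75109508, plus strand: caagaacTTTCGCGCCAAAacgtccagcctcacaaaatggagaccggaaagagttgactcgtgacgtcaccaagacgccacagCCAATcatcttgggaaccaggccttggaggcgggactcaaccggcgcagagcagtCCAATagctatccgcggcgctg
Mcm6, chr1:128359706-128359865, minus strand: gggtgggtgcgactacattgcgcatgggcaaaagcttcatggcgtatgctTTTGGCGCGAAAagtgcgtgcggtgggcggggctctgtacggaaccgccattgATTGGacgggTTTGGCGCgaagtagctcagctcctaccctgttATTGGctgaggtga
Cdc6, chr11:98907991-98908150, plus strand: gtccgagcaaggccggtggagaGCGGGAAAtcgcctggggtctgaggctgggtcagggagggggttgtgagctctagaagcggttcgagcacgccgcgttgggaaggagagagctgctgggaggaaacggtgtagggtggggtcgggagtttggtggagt
Mki67, chr7:135716380-135716539, minus strand: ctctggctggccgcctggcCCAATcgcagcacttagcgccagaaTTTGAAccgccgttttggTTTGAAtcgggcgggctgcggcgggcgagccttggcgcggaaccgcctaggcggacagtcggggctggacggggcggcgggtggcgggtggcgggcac
Top2a, chr11:99024190-99024349, minus strand: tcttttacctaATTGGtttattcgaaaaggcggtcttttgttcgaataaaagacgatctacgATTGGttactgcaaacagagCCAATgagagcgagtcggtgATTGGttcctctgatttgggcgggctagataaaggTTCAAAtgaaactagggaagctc
Cdc20, chr4:118437344-118437503, minus strand: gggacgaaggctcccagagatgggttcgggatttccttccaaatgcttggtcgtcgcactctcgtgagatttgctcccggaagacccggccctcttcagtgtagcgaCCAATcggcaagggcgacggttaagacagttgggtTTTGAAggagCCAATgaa
Tk1, chr11:117826015-117826174, minus strand: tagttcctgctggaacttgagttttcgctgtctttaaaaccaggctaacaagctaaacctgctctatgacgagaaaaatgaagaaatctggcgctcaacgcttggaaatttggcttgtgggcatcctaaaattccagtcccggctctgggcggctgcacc
The stretches of Mcm5 and Mcm6 hold overlapping E2F matches as well as CCAAT boxes, and that of Cdc6 has 1 E2F match and no other. Those of Mki67, Top2a and Cdc20 hold CHR and CCAAT matches and no E2F match, and that of Tk1 holds none of the 3. Among genes that rose, the promoter of Mad2l1 held none of the 3 either, and those of Mcm2, Pcna, Rrm1 and Rrm2 held no E2F match.

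An E2F match lay in the promoters of 6 of 12 replication genes (50%) and 1 of 19 mitosis genes (5.26%), against 4.16% of the 11771 tested genes with a promoter and 2.6% of all 27025 genes of the table. The replication genes were Mcm3, Mcm5, Mcm6, Mcm7, Cdc6 and Cdt1, and the mitosis gene was Cdk1. A CHR match lay in 1 of 12 replication genes (Mcm2, 8.33%) and 13 of 19 mitosis genes (68.4%), against 14.9% of tested genes. The CCAAT box was found in 8 of 12 replication genes (66.7%) and 16 of 19 mitosis genes (84.2%), against 42.1% of tested genes. All 13 mitosis genes with a CHR match also had a CCAAT box (68.4%), against 7.01% of tested genes with both. In the promoters of these genes, 2 pairs of matches of different motifs and 3 pairs of the same motif overlapped. These matches describe the letters in the window and show no binding.

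**Figure D1:**
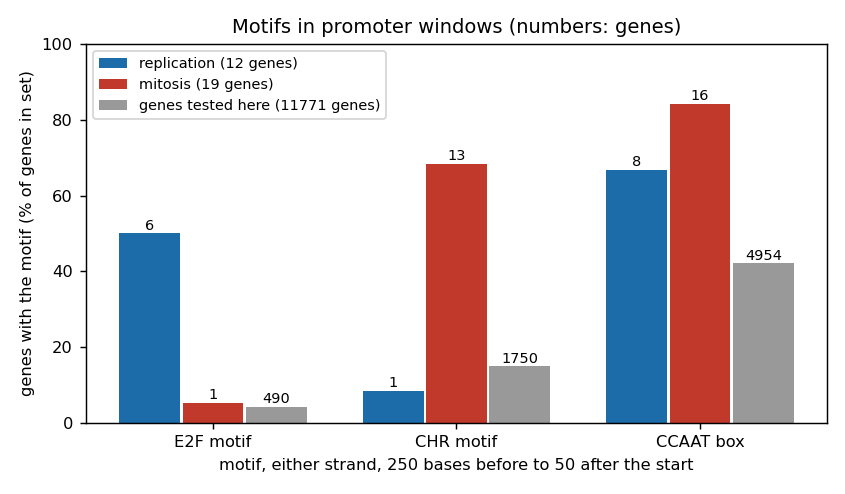
Share of genes (vertical axis, percent) whose promoter window holds an E2F, CHR or CCAAT match on either strand, for replication genes (blue), mitosis genes (red) and all tested genes (grey), with the number of genes above each bar. The E2F bar is highest for replication genes (6 of 12) and the CHR bar for mitosis genes (13 of 19).

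Cd5l, which checks the genotype, read 702.6 to 1926.8 on the 9 WT arrays and 4.0 to 23.5 on the 9 AIM-KO arrays. All 9 measured hepatocyte markers, of 10 listed, passed the filter, with sums between 49277.1 and 78823.5 on the 18 arrays. Xist, expressed from the inactive X chromosome of female cells, read 2921.6 to 3049.7 on 4 arrays, which were WT 20 weeks replicate 2 and all 3 of AIM-KO at 20 weeks. The 14 others had Xist at 7.8 to 26.2, while the Y-linked Eif2s3y read 498.4 to 675.1 on them and 3.9 to 7.3 on the 4. Diet duration and Xist status therefore cannot be told apart within AIM-KO at 20 weeks, save through 1 WT array. WT 12 weeks replicate 1 was the highest array of its group in 31 of 37 genes, WT 20 weeks replicate 2 the lowest in 27 and AIM-KO 20 weeks replicate 3 the lowest in 25. Counts of called genes are given with and without the WT arrays. Changes of single genes without such an array are given for some genes only.

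Levels are deposited intensities on a linear scale, and changes are differences of log2(intensity + 3.3) ± SE with n = 3 arrays per group and a 2-sided limma p adjusted over all 14694 genes. The threshold for a call was 0.05 on the adjusted p. Both comparisons within a genotype share its chow arrays, so they are not independent.

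Many replication and mitosis genes were higher in liver after the high-fat diet in both genotypes at 12 weeks and in WT at 20 weeks. At 12 weeks in WT, 13 of the 37 genes rose and none fell, where 3.52% of all genes rose. At 20 weeks in WT, 12 rose, where 8.72% of all genes did, and 1 fell (5.77% of all genes). In AIM-KO at 12 weeks, 20 rose (11.4% of all genes) and 1 fell (6.78% of all genes). In AIM-KO at 20 weeks, 2 rose (4.29% of all genes) and 1 fell (2.67% of all genes). The median change over the 37 genes was 1.02 at 12 weeks and 0.88 at 20 weeks in WT, and 1.20 and 0.34 in AIM-KO, while the median over all genes lay between -0.01 and 0.04.

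Counts of genes whose arrays did not overlap are given beside these. All 3 arrays at 12 weeks lay above all 3 on chow for 22 of 37 genes in WT (12.6% of all genes) and for 31 of 37 in AIM-KO (20.4% of all genes). At 20 weeks this held for 17 of 37 genes in WT (15.4% of all genes) and 10 of 37 in AIM-KO (13.5% of all genes). Of the genes that rose at 12 weeks, 12 did so in both genotypes, which is 92.3% of the 13 in WT and 60% of the 20 in AIM-KO. Pcna passed the threshold in WT alone, and Cdt1, Rrm1, Rrm2, Ccna2, Plk1, Mad2l1, Ube2c and Cdca3 passed the threshold in AIM-KO alone. The test of the difference itself called none of the 37 genes, as given with the genotype comparisons.

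Counts depended on the filter and on single arrays. Cdc6, Aurkb, Plk1, Bub1 and Bub1b lay above the filter on only 6, 4, 6, 3 and 5 of the 18 arrays, so genes of this kind entered through the arrays where they were high. With no filter the counts of called genes were 9 and 14 in WT and 21 and 2 in AIM-KO, at 12 and 20 weeks, where 3.67%, 10.8%, 13.5% and 5.05% of all genes were called. Without WT 12 weeks replicate 1, only Mcm2, Mcm6 and Mki67 were called at 12 weeks in WT, where 2.28% of all genes were, and without any 1 of the 3 WT chow arrays 7 genes were, where 2.82% to 4.69% of all genes were. Without WT 20 weeks replicate 2, 17 genes were called at 20 weeks in WT, where 16.8% of all genes were called in either direction, and without replicate 1 or replicate 3 there were 8 (9.58% and 9.98% of all genes). Called in every fit that left out 1 array were 3 of the 13 genes at 12 weeks in WT (Mcm2, Mcm6 and Mki67) and 6 of 13 at 20 weeks in WT (Mcm2, Mcm3, Mcm6, Pcna, Mki67 and Ccnd1). In AIM-KO these were 11 of 21 at 12 weeks (Mcm2 to Mcm6, Cdt1, Tk1, Mki67, Top2a, Cdc20 and Ccnd1) and 2 of 3 at 20 weeks (Mcm2 and Ccnd1).

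**Figure D2:**
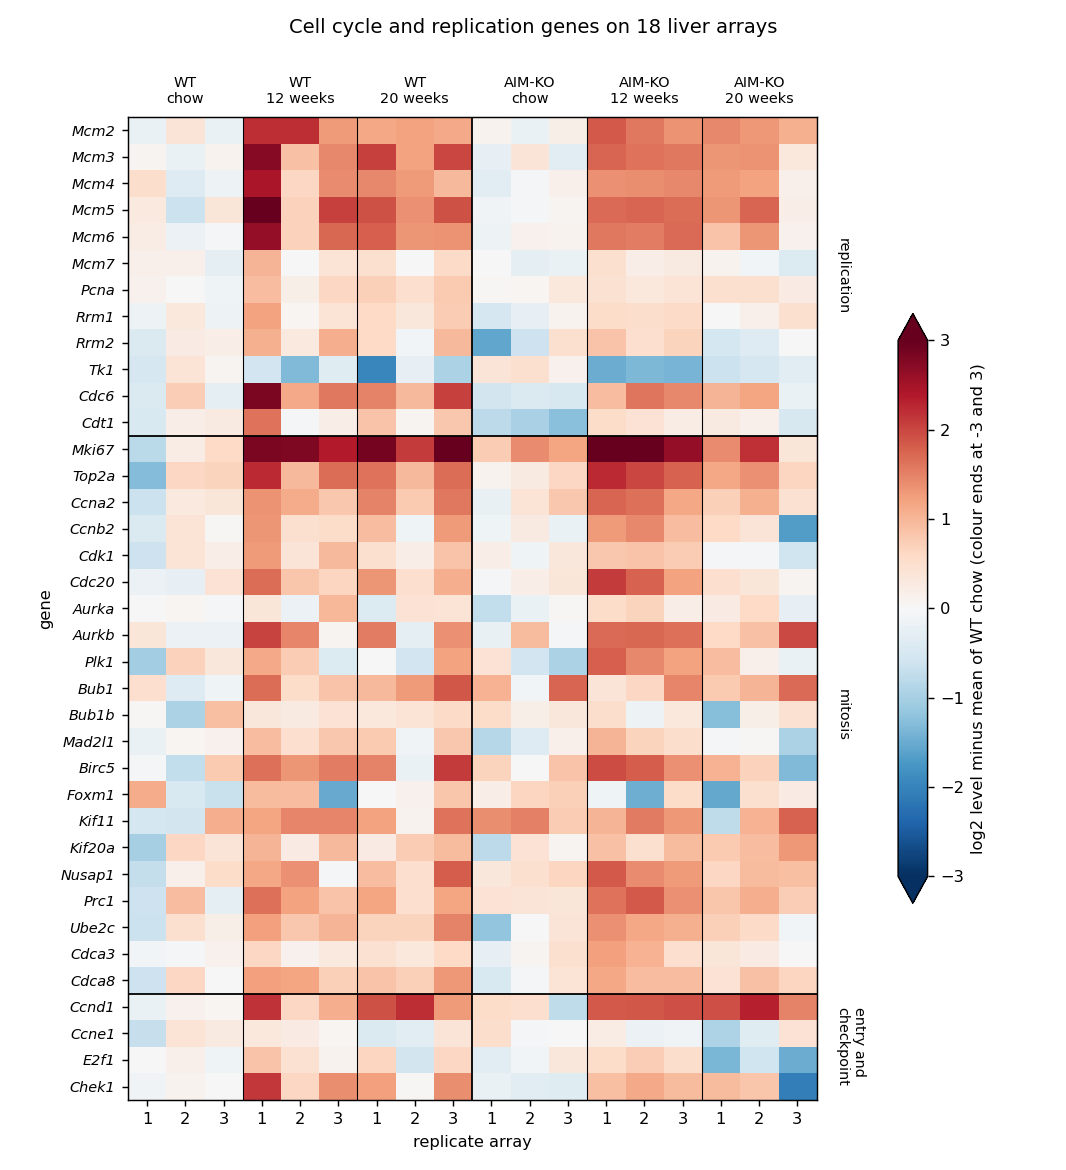
Each cell is the log2 level of 1 gene (vertical axis) on 1 array (horizontal axis, replicates 1 to 3 of 6 groups) minus the mean of the WT chow arrays, with red higher and blue lower. Mcm2 to Mcm6 and Mki67 are red on most arrays of the high-fat diet groups, Tk1 is blue there, and replicate 3 of AIM-KO at 20 weeks is paler or blue for many genes.

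All 5 of the helicase genes Mcm2 to Mcm6 rose at 12 and 20 weeks in WT and at 12 weeks in AIM-KO, and only Mcm2 passed the threshold at 20 weeks in AIM-KO. Mcm2 in WT read 35.4, 55.0 and 35.2 on chow, 203.5, 202.1 and 104.2 at 12 weeks and 95.3, 98.3 and 93.8 at 20 weeks. AIM-KO arrays read 44.1, 35.1 and 46.5 on chow, 155.2, 130.3 and 109.7 at 12 weeks and 116.6, 106.3 and 89.8 at 20 weeks. Every array on the high-fat diet was above every chow array of its genotype. The change was 1.91 ± 0.23 (adjusted p = 7.2e-05) and 1.16 ± 0.23 (adjusted p = 0.002) in WT, and 1.57 ± 0.23 (adjusted p = 0.00012) and 1.25 ± 0.23 (adjusted p = 0.0022) in AIM-KO. Mcm2 was called in all of these comparisons whichever array was left out. At 20 weeks in AIM-KO the call was lost with a term for Xist status (1.20 ± 0.42, adjusted p = 0.18) and with the second probe set (1.10 ± 0.34, adjusted p = 0.063).

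Mcm5, another subunit of the helicase, read 46.4, 22.7 and 49.6 on chow, 322.7, 62.3 and 167.2 at 12 weeks and 149.5, 103.2 and 149.9 at 20 weeks in WT. The values in AIM-KO were 34.7, 35.9 and 40.2 on chow, 130.3, 133.6 and 127.5 at 12 weeks and 98.5, 134.0 and 43.4 at 20 weeks. The WT 12 weeks arrays spread widely, from 62.3 to 322.7, while the AIM-KO 12 weeks arrays lay between 127.5 and 133.6, and all of these were above their chow arrays. The change was 1.91 ± 0.43 (adjusted p = 0.013) and 1.73 ± 0.43 (adjusted p = 0.011) in WT and 1.74 ± 0.43 (adjusted p = 0.0089) in AIM-KO at 12 weeks. At 20 weeks in AIM-KO it was 1.11 ± 0.43 (adjusted p = 0.14), with replicate 3 close to the chow level. Without that array it was 1.56 ± 0.44 with an adjusted p that rounds to 0.05 and was called. The call at 12 weeks in WT was lost without WT 12 weeks replicate 1 or WT chow replicate 2. Both WT calls were lost with the second probe set (1.40 ± 0.42 and 0.99 ± 0.42, adjusted p = 0.064 and 0.13).

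Mcm6 read 46.7, 34.8 and 38.0 on chow, 264.5, 66.2 and 138.6 at 12 weeks and 144.7, 104.6 and 105.1 at 20 weeks in WT. For AIM-KO the arrays gave 35.0, 43.9 and 42.7 on chow, 124.3, 120.7 and 136.5 at 12 weeks and 73.7, 104.5 and 43.5 at 20 weeks. The high-fat diet arrays lay above the chow arrays in all groups except AIM-KO at 20 weeks, where replicate 3 lay within the chow range. The changes were 1.69 ± 0.34 and 1.49 ± 0.34 in WT and 1.58 ± 0.34 and 0.74 ± 0.34 in AIM-KO, with adjusted p values of 0.0064, 0.0069, 0.0035 and 0.23.

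Mcm3 and Mcm4 followed the same pattern. For Mcm3 the changes were 1.69, 1.75, 1.72 and 1.06 in the same order, and for Mcm4 they were 1.49, 1.23, 1.47 and 0.95. Neither was called at 20 weeks in AIM-KO (adjusted p = 0.095 and 0.12), but both were when replicate 3 of that group was left out (1.40 ± 0.38 and 1.31 ± 0.36). Mcm7, the subunit with 4 probe sets, was not called anywhere, with changes of 0.49 and 0.35 in WT and 0.47 and 0.03 in AIM-KO. Its 3 other probe sets gave changes between 0.09 and 0.37 at 12 weeks in WT.

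The probe sets used for Mcm2 to Mcm6 have names that mark possible matches to several transcripts, so other probe sets of these genes were read too. The second probe set gave 1.56 for Mcm2, 1.58 for Mcm4, 1.40 for Mcm5 and 1.33 for Mcm6 at 12 weeks in WT, against 2.08, 1.37, 1.89 and 1.42 at 12 weeks in AIM-KO. Mcm3 had 4 others, of which the 2 dimmest gave 0.23 and 0.20 in WT at 12 weeks and the others 1.39 and 2.18. At 12 weeks in AIM-KO those 4 sets of Mcm3 gave 1.69, 1.92, 0.12 and -0.40 from the brightest to the dimmest, and with the mean of its sets Mcm3 was not called there (1.01 ± 0.41, adjusted p = 0.11). Among sets that passed the filter, the direction was the same for all sets of these genes in WT at 12 weeks, and at 12 weeks in AIM-KO for all but the dimmest of Mcm3.

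Among the factors that load the helicase, Cdc6 read 0.7, 5.7 and 1.1 on chow, 35.2, 8.5 and 12.8 at 12 weeks and 11.9, 7.4 and 19.1 at 20 weeks in WT. AIM-KO arrays read 0.4, 0.7 and 0.6 on chow, 7.0, 13.3 and 11.3 at 12 weeks and 7.7, 9.0 and 1.4 at 20 weeks. All chow arrays were at 5.7 or lower, near the dim end of the array, and all 12 weeks arrays were above them. Its change was 1.84 ± 0.51 (adjusted p = 0.042) at 12 weeks in WT and 1.81 ± 0.51 (adjusted p = 0.019) in AIM-KO, and it missed the threshold at 20 weeks in both (1.51 ± 0.51 and 1.15 ± 0.51).

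Cdt1, its partner in loading, read 65.7, 104.8 and 110.4 on chow, 287.4, 87.3 and 105.4 at 12 weeks and 167.5, 96.6 and 161.7 at 20 weeks in WT. The values in AIM-KO were 51.9, 45.1 and 36.5 on chow, 135.9, 123.6 and 107.4 at 12 weeks and 111.0, 101.4 and 64.9 at 20 weeks. The AIM-KO chow arrays were all below the WT chow arrays, though this difference was not called (-1 ± 0.34, adjusted p = 0.5). Cdt1 rose at 12 weeks in AIM-KO (1.40 ± 0.34, adjusted p = 0.0068) and its other changes were 0.98 at 20 weeks in AIM-KO and 0.58 and 0.58 in WT, none of them called.

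Pcna, the sliding clamp of the polymerases, had small changes. It read 523.1, 471.8 and 435.3 on chow, 910.4, 539.1 and 730.5 at 12 weeks and 783.7, 679.9 and 824.5 at 20 weeks in WT. For AIM-KO the arrays gave 489.7, 493.8 and 595.1 on chow, 657.8, 596.7 and 630.4 at 12 weeks and 668.1, 669.1 and 562.4 at 20 weeks. In WT every high-fat diet array exceeded every chow array, and Pcna rose by 0.58 ± 0.15 and 0.67 ± 0.15 at 12 and 20 weeks, with adjusted p values of 0.03 and 0.0051. In AIM-KO the changes were 0.26 ± 0.15 and 0.27 ± 0.15 and were not called.

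The nucleotide genes did not move as a group. Rrm1 and Rrm2, the subunits of ribonucleotide reductase, rose only at 12 weeks in AIM-KO by this threshold (0.76 ± 0.24, adjusted p = 0.031 and 1.24 ± 0.37, adjusted p = 0.026), and their changes at 12 weeks in WT were 0.56 ± 0.24 and 0.82 ± 0.37. With 1 array left out at a time, each kept its call in 1 of 6 fits, and neither did without a variance trend (adjusted p = 0.051 and 0.058). The Rrm2 chow arrays of AIM-KO spread from 51.6 to 224.4. Tyms read between 0.3 and 12.4 on all 18 arrays and was not tested.

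Tk1, the thymidine kinase of the salvage pathway, was the only replication gene that fell. It read 94.2, 178.3 and 142.8 on chow, 88.8, 51.2 and 104.0 at 12 weeks and 32.2, 112.5 and 68.3 at 20 weeks in WT. AIM-KO arrays read 176.5, 187.4 and 147.2 on chow, 45.5, 51.0 and 48.7 at 12 weeks and 83.9, 93.9 and 107.4 at 20 weeks. All 6 AIM-KO arrays on the high-fat diet were below the AIM-KO chow arrays, with the lowest at 12 weeks, while in WT the groups overlapped. Tk1 fell by 1.74 ± 0.32 at 12 weeks in AIM-KO (adjusted p = 0.001) and by 1.04 ± 0.32 at 20 weeks in WT (adjusted p = 0.036). Its changes of -0.76 ± 0.32 at 12 weeks in WT and -0.82 ± 0.32 at 20 weeks in AIM-KO were not called. It has 1 probe set that names it alone, so no second set could be read. With 1 array left out at a time, its fall was called in 6 of 6 fits at 12 weeks in AIM-KO and in 2 of 6 at 20 weeks in WT. The WT call at 20 weeks was also lost without a variance trend (adjusted p = 0.069) and with a term for the actin control ratio (-0.71 ± 0.34, adjusted p = 0.21).

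**Figure D3:**
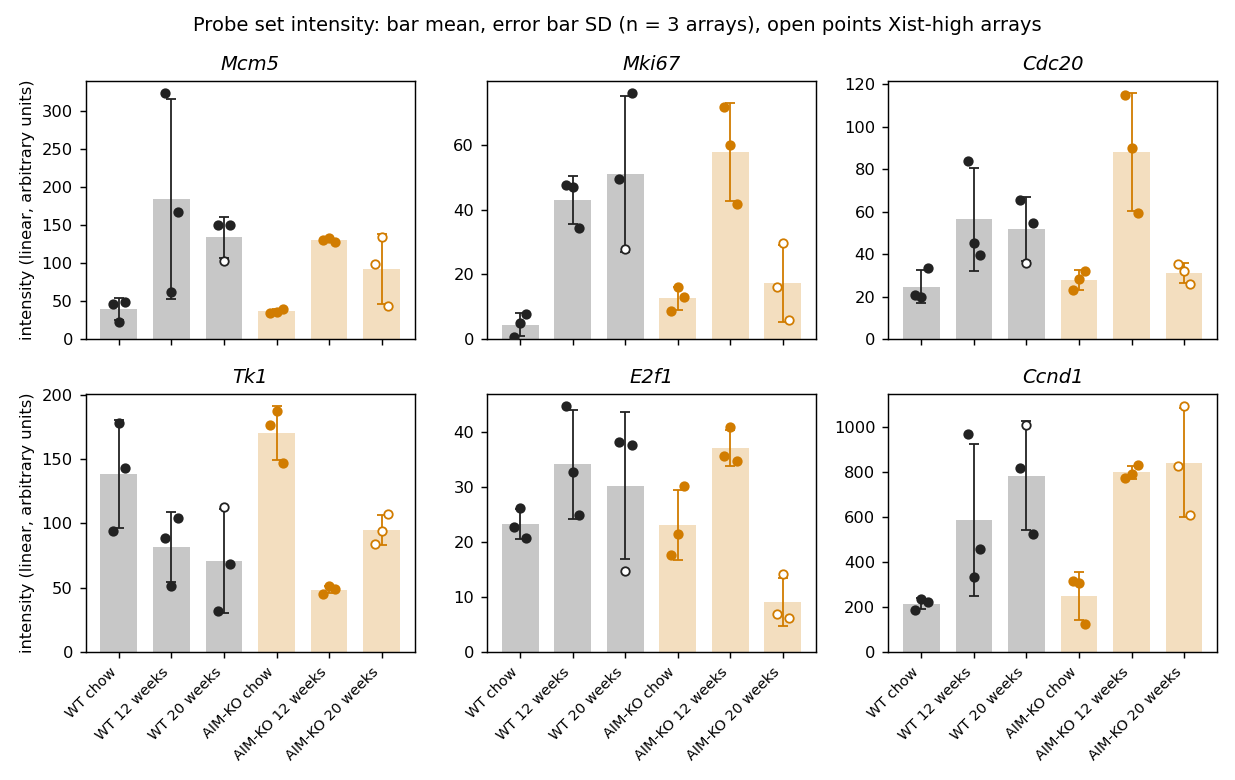
Intensity (linear, arbitrary units) of 6 genes on each array by group, with the mean as a bar, the SD of 3 arrays as an error bar and the Xist-high arrays as open points. Mcm5, Mki67, Cdc20 and Ccnd1 are higher in most high-fat diet groups, Tk1 is lower, and E2f1 is lowest on the 4 open points.

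Mki67, the chromosome-coating protein used as a marker of dividing cells, had the largest rise of these genes at both times in WT and at 12 weeks in AIM-KO. It read 0.8, 5.1 and 7.7 on chow, 47.7, 46.9 and 34.3 at 12 weeks and 49.5, 27.8 and 75.8 at 20 weeks in WT. The values in AIM-KO were 8.9, 16.1 and 13 on chow, 71.6, 59.9 and 41.6 at 12 weeks and 16.0, 29.8 and 6.0 at 20 weeks. The WT arrays on the diet were at 27.8 or higher and the WT chow arrays at 7.7 or lower, while AIM-KO at 20 weeks overlapped its chow group. The change was 2.66 ± 0.43 (adjusted p = 0.0012) and 2.81 ± 0.43 (adjusted p = 0.00028) in WT, 1.93 ± 0.43 (adjusted p = 0.0044) at 12 weeks in AIM-KO and 0.21 ± 0.43 (adjusted p = 0.86) at 20 weeks. The chow level of WT is close to the pseudocount, so these values understate the ratio of intensities.

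Top2a, the topoisomerase that untangles chromosomes, read 2.2, 17.8 and 18.5 on chow, 60.9, 23.3 and 40 at 12 weeks and 39.0, 23.6 and 40.2 at 20 weeks in WT. For AIM-KO the arrays gave 11.3, 13.1 and 17.8 on chow, 61.1, 51.4 and 42.9 at 12 weeks and 27.0, 32.0 and 18.1 at 20 weeks. No array of a high-fat diet group overlapped the chow arrays of its genotype, although AIM-KO 20 weeks replicate 3 (18.1) was just above the highest chow array (17.8). The change was 1.62 ± 0.43 and 1.43 ± 0.43 in WT and 1.67 ± 0.43 at 12 weeks in AIM-KO, all called (adjusted p = 0.032, 0.031 and 0.01). It was 0.73 ± 0.43 at 20 weeks in AIM-KO (adjusted p = 0.37). A second, dimmer probe set gave 0.29 and 0.26 in WT and 0.96 and 1.15 in AIM-KO. With the mean of the sets, neither WT change was called (0.96 ± 0.37 and 0.85 ± 0.37, adjusted p = 0.17 and 0.16). With 1 array left out at a time, each WT call was kept in 3 of 6 fits and the AIM-KO call at 12 weeks in 6 of 6.

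Of the genes that drive entry into mitosis, Ccna2 (cyclin A2) rose at 20 weeks in WT (1.28 ± 0.32, adjusted p = 0.01) and at 12 weeks in AIM-KO (1.19 ± 0.32, adjusted p = 0.013), and missed the threshold at 12 weeks in WT (1.08 ± 0.32, adjusted p = 0.054). Cdk1, the kinase that cyclins A and B activate, was not called against chow, with changes of 0.88 ± 0.28 and 0.52 ± 0.28 in WT and 0.68 ± 0.28 and -0.37 ± 0.28 in AIM-KO. Ccnb2 (cyclin B2) was not called either, its largest change being 1.23 ± 0.49 at 12 weeks in AIM-KO. Foxm1, a transcription factor of mitotic genes, had changes between -0.87 and 0.32 and none was called, with arrays between 3.3 and 38.7. Plk1, a kinase of mitotic entry and exit, rose at 12 weeks in AIM-KO (1.84 ± 0.57, adjusted p = 0.032). Its arrays read 24.8, 18.4 and 15.3 there against 7.6, 2.1 and 0.9 on chow. With 1 array left out at a time the call was lost in 5 of 6 fits. Plk1 lay above the filter on only 6 of the 18 arrays, so it entered the test through arrays where it was high. Aurka and Aurkb, the Aurora kinases, were not called, with changes at 12 weeks of 0.39 and 1.19 in WT and 0.78 and 1.45 in AIM-KO.

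Cdc20, which activates the ubiquitin ligase that ends mitosis, read 20.8, 19.9 and 33.6 on chow, 84.1, 45.5 and 39.7 at 12 weeks and 65.6, 35.9 and 54.9 at 20 weeks in WT. AIM-KO arrays read 23.1, 28.4 and 32.2 on chow, 114.8, 89.9 and 59.6 at 12 weeks and 35.4, 32.2 and 25.9 at 20 weeks. All high-fat diet arrays in WT lay above the chow arrays, as did the AIM-KO arrays at 12 weeks, while those at 20 weeks overlapped their chow group. It rose by 1.05 ± 0.29 and 0.98 ± 0.29 in WT (adjusted p = 0.043 and 0.031) and by 1.51 ± 0.29 at 12 weeks in AIM-KO (adjusted p = 0.0014), with 0.14 ± 0.29 at 20 weeks. A second probe set gave 1.26, 1.05, 0.88 and 0.65 in the same order, and the dimmest, with a mean of 8.9, gave values from -0.91 to -0.07. With the mean of the sets all of these calls were lost. The changes were then 0.60 ± 0.29 and 0.37 ± 0.29 in WT and 0.77 ± 0.29 at 12 weeks in AIM-KO (adjusted p = 0.27, 0.45 and 0.079). With 1 array left out at a time, each WT call was kept in 2 of 6 fits and the AIM-KO call at 12 weeks in 6 of 6. Ube2c, the conjugating enzyme of the same ligase, rose at 12 weeks in AIM-KO (1.46 ± 0.38, adjusted p = 0.011) and had a change of 1.02 ± 0.38 at 12 weeks in WT (adjusted p = 0.13).

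Cdca8, part of the complex that corrects chromosome attachment, rose by 1.04 ± 0.28 and 0.96 ± 0.28 in WT and by 1.04 ± 0.28 at 12 weeks in AIM-KO (adjusted p = 0.037, 0.029 and 0.015). Its other probe sets gave 0.69 and -0.05 at 12 weeks in WT, so the rise rests on the brightest one. Birc5 (survivin), of the same complex, had changes of 1.5 ± 0.56 and 1.13 ± 0.56 in WT and 1.20 ± 0.56 and -0.38 ± 0.56 in AIM-KO, and none was called. Prc1, which bundles microtubules between separating chromosomes, rose at 12 weeks in WT (1.24 ± 0.34, adjusted p = 0.041), with 17.5 on 1 array against 18.5 on the highest chow array. Prc1 also rose at 12 weeks in AIM-KO (1.22 ± 0.34, adjusted p = 0.018). Its dimmer probe set gave 0.48 ± 0.51 for WT (adjusted p = 0.68) and 0.84 ± 0.51 for AIM-KO (adjusted p = 0.31). The mean of the sets gave 0.86 ± 0.38 and 1.03 ± 0.38 (adjusted p = 0.23 and 0.078). Both calls therefore rest on the brightest set. Leaving out 1 array at a time kept the WT call in 2 of 6 fits and the AIM-KO call in 4 of 6.

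Of the spindle checkpoint genes, Mad2l1 read 53.9, 65.0 and 68.9 on chow, 120.8, 89.7 and 111.5 at 12 weeks and 110.0, 58.1 and 111.8 at 20 weeks in WT. The values in AIM-KO were 32.9, 46.7 and 69.2 on chow, 128.6, 100.3 and 91.7 at 12 weeks and 60.4, 64.3 and 30.5 at 20 weeks. It rose at 12 weeks in AIM-KO (1.10 ± 0.29, adjusted p = 0.012), where the groups did not overlap, and its change at 12 weeks in WT was 0.74 ± 0.29 (adjusted p = 0.15). Bub1 and Bub1b were dim, at 16.5 or lower on all arrays, and were not called. Kif11 and Kif20a (spindle motors) and Nusap1 (a spindle protein) were not called either, with changes between -0.54 for Kif11 at 20 weeks in AIM-KO and 1.37 for Kif11 at 12 weeks in WT. Cdca3, which helps cells enter mitosis, rose at 12 weeks in AIM-KO (0.82 ± 0.23, adjusted p = 0.016). Its 2 other probe sets gave -0.41 and -0.35 there and the mean of the sets 0.02 ± 0.20 (adjusted p = 0.96), so the rise rests on the brightest one.

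Ccnd1 (cyclin D1), which drives entry into the cycle, was the only gene besides Mcm2 that rose in all 4 comparisons with chow. It read 186.0, 234.0 and 224.4 on chow, 966.6, 331.4 and 455.3 at 12 weeks and 816.8, 1006.8 and 524.7 at 20 weeks in WT. For AIM-KO the arrays gave 316.7, 304.9 and 124.9 on chow, 771.4, 789.3 and 828.9 at 12 weeks and 824.1, 1090.7 and 606.1 at 20 weeks. Every high-fat diet array was above every chow array of its genotype. It changed by 1.29 ± 0.35 (adjusted p = 0.039) and 1.81 ± 0.35 (adjusted p = 0.0019) in WT and by 1.78 ± 0.35 (adjusted p = 0.0017) and 1.82 ± 0.35 (adjusted p = 0.0036) in AIM-KO. At 20 weeks in AIM-KO the call was lost with a term for Xist status (1.20 ± 0.63, adjusted p = 0.40). At 12 weeks in WT the call was lost when any of 5 of the 6 arrays was left out. The 2 other probe sets gave 1.40 and 0.69 at 12 weeks in WT and 1.31 and 0.99 at 20 weeks in AIM-KO.

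E2f1, a transcription factor that switches on replication genes, read 22.8, 26.3 and 20.8 on chow, 44.8, 32.8 and 25 at 12 weeks and 38.3, 14.8 and 37.7 at 20 weeks in WT. AIM-KO arrays read 17.7, 21.6 and 30.2 on chow, 35.8, 41.0 and 34.8 at 12 weeks and 6.9, 14.2 and 6.2 at 20 weeks. The 4 Xist-high arrays read 6.2 to 14.8 and the other 14 read 17.7 to 44.8. Of the 37 genes, only E2f1 had all Xist-high arrays below all others. How many of all genes split in this way was not counted, so this is no trait particular to E2f1. It fell by 1.12 ± 0.32 at 20 weeks in AIM-KO against chow (adjusted p = 0.042), while its changes were 0.64 ± 0.32 at 12 weeks in AIM-KO and 0.47 ± 0.32 and 0.24 ± 0.32 in WT. With a term for Xist status the change at 20 weeks in AIM-KO was 0.07 ± 0.48 (adjusted p = 0.97). With 1 array left out at a time the call was lost in 4 of 6 fits, and it was kept in 5 of 12 other alternatives. A second probe set gave 0.39 in that comparison and 1.55 at 12 weeks in AIM-KO.

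Chek1, the kinase that guards stalled replication forks, read 18.3, 21.6 and 19.9 on chow, 98.1, 32.1 and 57.9 at 12 weeks and 50.9, 20.4 and 57.8 at 20 weeks in WT. The values in AIM-KO were 16.8, 15.2 and 14.7 on chow, 40.3, 48.1 and 41.4 at 12 weeks and 41.2, 38.0 and 2.2 at 20 weeks. At 12 weeks all arrays lay above chow in both genotypes, but the changes were not called (1.38 ± 0.57, adjusted p = 0.18 in WT and 1.30 ± 0.57, adjusted p = 0.13 in AIM-KO), and AIM-KO 20 weeks replicate 3 at 2.2 was the lowest of all arrays. Ccne1 (cyclin E1) had changes between -0.43 and 0.21 and was not called.

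**Figure D4:**
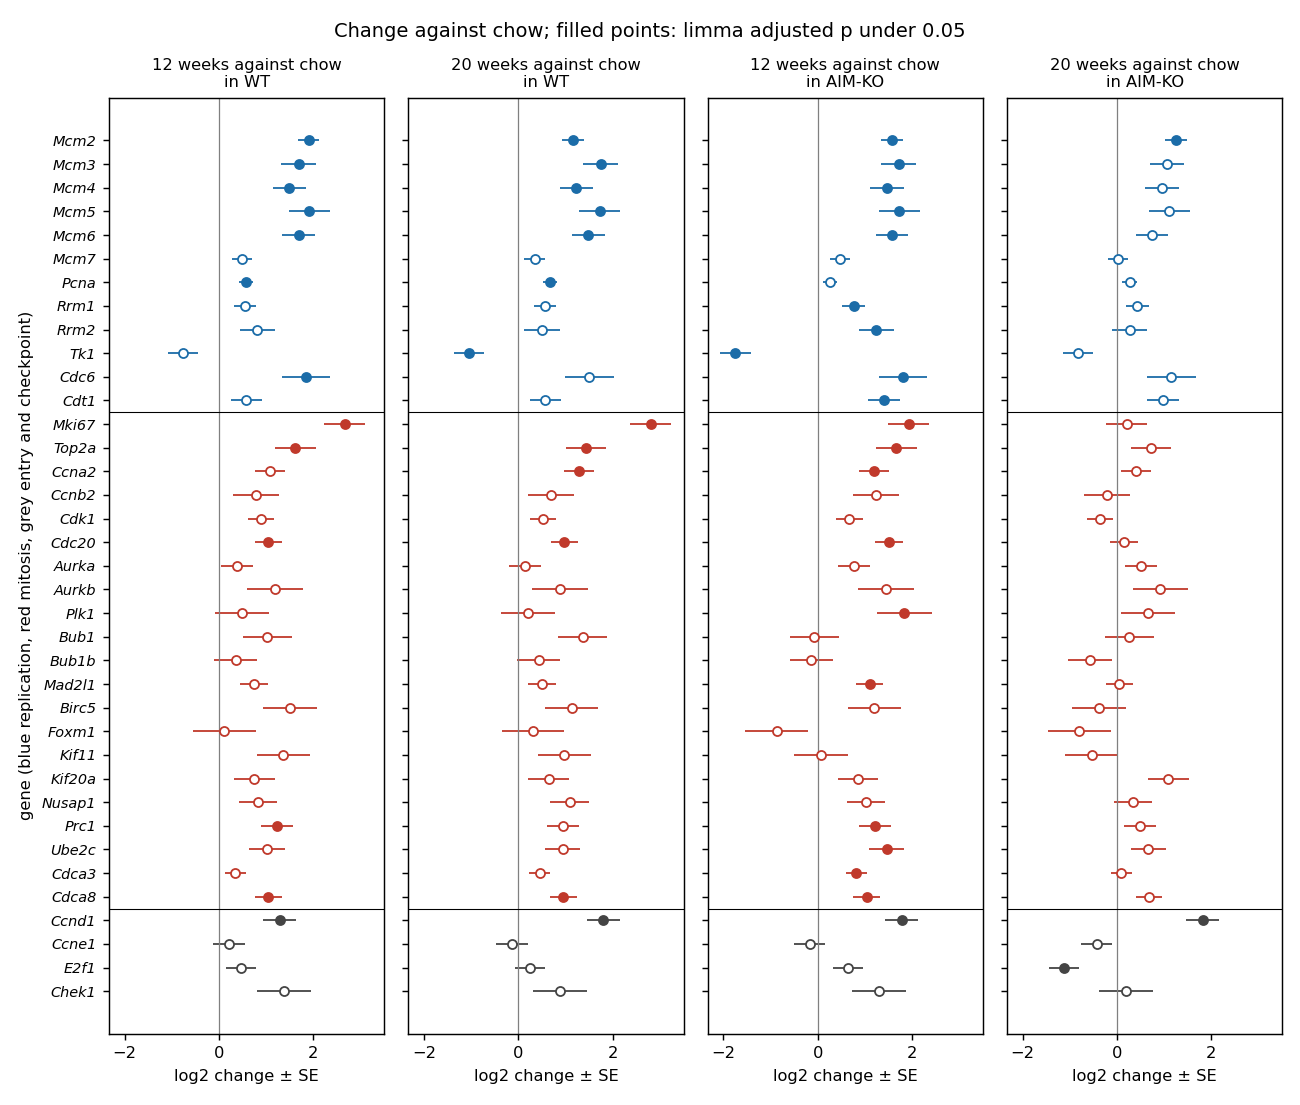
Change of each gene against chow (horizontal axis, log2 scale, ± SE, n = 3 arrays per group) for 2 diet durations in each genotype, with filled points for adjusted p under 0.05 in limma. Most points lie right of 0 in the first 3 panels, with 13, 13 and 21 filled points, and 3 points are filled in AIM-KO at 20 weeks.

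Replication and mitosis genes were then set beside each other, as median changes with no test. The medians were 1.16 for replication and 1.02 for mitosis at 12 weeks in WT, 0.92 and 0.94 at 20 weeks in WT, and 1.44 and 1.10 at 12 weeks in AIM-KO. At 20 weeks in AIM-KO they were 0.85 and 0.26, the widest gap, with 11 of 12 replication genes and 15 of 21 mitosis genes above 0. That gap was 0.58, and 0.03 with a term for Xist status, which 1 WT array alone serves to estimate. By promoter, the 7 genes with an E2F match had median changes of 1.69 and 1.49 in WT and 1.58 and 0.98 in AIM-KO at 12 and 20 weeks. The 14 genes with a CHR match had 1.03, 0.95, 1.22 and 0.35, and 11 tested genes with neither had 0.74, 0.57, 0.76 and 0.20. The gap between replication and mitosis of 0.33 at 12 weeks in AIM-KO was 0.00 when each gene was the mean of its probe sets. Called genes were 7 of 12 replication and 5 of 21 mitosis genes at 12 weeks in WT, 7 of 12 (Tk1 lower) and 5 of 21 at 20 weeks in WT, 10 of 12 (Tk1 lower) and 10 of 21 at 12 weeks in AIM-KO, and 1 of 12 and 0 of 21 at 20 weeks in AIM-KO.

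By array, the median of the 12 replication genes relative to the WT chow mean was 1.19 ± 0.73 at 12 weeks (SD, n = 3), with 1.92, 0.46 and 1.19 on the 3 arrays, and 0.91 ± 0.14 at 20 weeks in WT. In AIM-KO the chow arrays gave -0.08 ± 0.16, those at 12 weeks 0.95 ± 0.06 and those at 20 weeks 0.55 ± 0.36. The median of the 21 mitosis genes was 0.96 ± 0.24 and 0.88 ± 0.42 in WT, and 0.23 ± 0.15, 1.29 ± 0.13 and 0.55 ± 0.17 in AIM-KO. The AIM-KO 12 weeks arrays were thus the most alike, and the replication median of WT 12 weeks the most spread. For both medians, the 3 arrays lay above the 3 chow arrays of their genotype at 12 and 20 weeks in WT and at 12 weeks in AIM-KO. At 20 weeks in AIM-KO this held for replication (lowest 0.145, highest on chow 0.101). It did not hold there for mitosis (lowest 0.362, highest on chow 0.391).

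**Figure D5:**
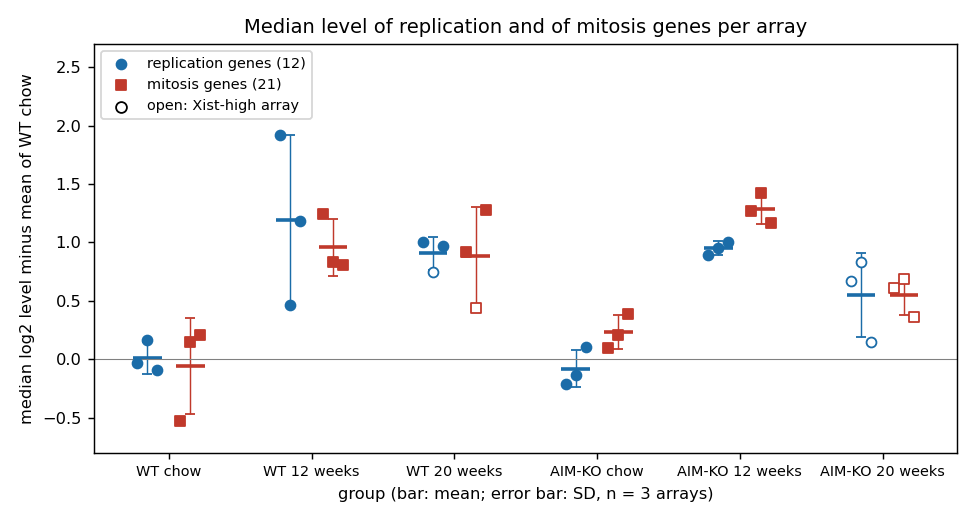
Median log2 level of the replication genes (blue circles) and mitosis genes (red squares) on each array minus the mean of WT chow, by group, with the mean as a bar and the SD of 3 arrays as an error bar. The group means lie between -0.08 and 0.23 on chow and between 0.95 and 1.29 at 12 weeks, and the 3 arrays of AIM-KO at 20 weeks, all Xist-high and drawn open, lie between 0.145 and 0.837.

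From 12 to 20 weeks in WT none of the 37 genes was called, where 0.0204% of all genes were. Of the 37, 1 had an unadjusted p under 0.05, a threshold at which all genes were not counted. In AIM-KO 4 genes were lower at 20 than at 12 weeks, where 2.12% of all genes were lower. These were E2f1 (-1.76 ± 0.32, adjusted p = 0.0069), Cdc20 (-1.37 ± 0.29, adjusted p = 0.015), Cdk1 (-1.04 ± 0.28, adjusted p = 0.046) and Mki67 (-1.72 ± 0.43, adjusted p = 0.037). The median change over the 37 genes was -0.65 in AIM-KO and -0.18 in WT, and in AIM-KO all 3 arrays at 20 weeks were below all 3 at 12 weeks for 21 of 37 genes, where this held for 15.5% of all genes. With a term for Xist status no gene was called and the median was -0.06. Every AIM-KO array at 20 weeks was Xist-high and none at 12 weeks was. Whether the difference between the 2 durations in AIM-KO goes with time on the diet or with Xist status cannot be told apart. E2f1 stayed called whichever array was left out, whereas Cdk1 was called in none of 6 such fits, Mki67 in 2 and Cdc20 in 3. The call of Cdc20 was also lost with the mean of its probe sets (-0.68 ± 0.29, adjusted p = 0.26) and with its second set (-0.22 ± 0.35, adjusted p = 0.82).

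The genotypes were compared on each diet. None of the 37 genes was called in limma in AIM-KO against WT on chow, at 12 weeks or at 20 weeks. Of all genes 0.0272%, 0.0749% and 0.157% were called. An unadjusted p under 0.05 was found for 3, 2 and 7 of the 37. All genes were not counted at that threshold, so these 3 counts have no background. The median differences over the 37 genes were 0.03, -0.04 and -0.48. At 20 weeks the smallest adjusted p was that of E2f1 (-1.40 ± 0.32, adjusted p = 0.08), followed by Mki67 (-1.48 ± 0.43, adjusted p = 0.14). Without WT 20 weeks replicate 2, the Xist-high WT array, E2f1 (-1.79 ± 0.30, adjusted p = 0.002), Mki67 (-1.84 ± 0.46, adjusted p = 0.024) and Mad2l1 (-1.12 ± 0.29, adjusted p = 0.027) were lower in AIM-KO, where 6.45% of all genes were called, but Xist status then divides the groups completely.

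The difference of the diet effect between the genotypes was called for none of the 37 genes at 12 weeks (0.00681% of all genes) or at 20 weeks (0% of all genes). At 12 and 20 weeks, 1 and 3 of the 37 had an unadjusted p under 0.05, a threshold at which all genes were not counted. The largest difference at 20 weeks was that of Mki67 (-2.60 ± 0.61, adjusted p = 0.19). Tk1 at 12 weeks was -0.99 ± 0.46 (adjusted p = 0.51), which was not called. Without WT 20 weeks replicate 2, the differences of Mki67 (-2.95 ± 0.62, adjusted p = 0.02) and E2f1 (-1.76 ± 0.40, adjusted p = 0.029) were called, where 2.25% of all genes were.

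Other genes of the same pathways, listed by name beside the 40, were counted in the same comparisons with chow. Apart from Mcm10, a gene is named only in comparisons where it was among up to 3 called genes of its list with the largest change. A comparison not given for a gene is therefore no sign that the gene did not change there. Of 34 other replication genes tested, 6 rose at 12 weeks in WT, 5 rose and 1 fell at 20 weeks in WT, 6 rose and 1 fell at 12 weeks in AIM-KO, and 1 rose and 1 fell at 20 weeks in AIM-KO. Over all genes 3.52%, 8.72%, 11.4% and 4.29% rose in these comparisons, and 5.77%, 6.78% and 2.67% fell in the last 3, so the count of 1 at 20 weeks in AIM-KO is near that background. The median changes of the 34 were 0.37, 0.19, 0.32 and 0.12. Uhrf1, which copies DNA methylation at forks, rose by 1.98 ± 0.55 and 1.93 ± 0.55 in WT and by 2.17 ± 0.55 at 12 weeks in AIM-KO (adjusted p = 0.043, 0.024 and 0.0095). Gins2, a helicase cofactor, rose by 2.14 ± 0.53, 1.72 ± 0.53 and 1.61 ± 0.53 in the same comparisons (adjusted p = 0.022, 0.035 and 0.04). Lig1, the ligase that joins new DNA fragments, rose by 1.18 ± 0.24 and 1.23 ± 0.24 in WT, and Timeless, a fork protection factor, by 2.49 ± 0.50 and 1.82 ± 0.50 in AIM-KO. Mcm10, which helps to activate the helicase, fell in AIM-KO by 1.26 ± 0.18 at 12 weeks (adjusted p = 8.8e-05) and by 1.27 ± 0.18 at 20 weeks (adjusted p = 0.0002), with mean intensities of 1108, 454.4 and 450.1 on chow, at 12 and at 20 weeks. In WT its change was -0.13 ± 0.18 at 12 weeks and -0.67 ± 0.18 at 20 weeks, the latter called (adjusted p = 0.015).

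Of 41 other mitosis genes tested, 5 rose at 12 weeks and 8 at 20 weeks in WT, and none fell. In AIM-KO 15 rose and 1 fell at 12 weeks, and 1 rose and 1 fell at 20 weeks. The shares of all genes that rose were 3.52% and 8.72% in WT and 11.4% and 4.29% in AIM-KO, where 6.78% and 2.67% fell, and the 1 of 41 at 20 weeks in AIM-KO is near the last. The median changes were 0.48 and 0.18 in WT and 0.87 and 0.16 in AIM-KO. Spc25, part of the kinetochore, rose by 1.33 ± 0.24 and 1.41 ± 0.24 in WT and 0.86 ± 0.24 at 20 weeks in AIM-KO (adjusted p = 0.0028, 0.00065 and 0.037). Stmn1, a regulator of microtubules, rose by 1.25 ± 0.24 and 1.21 ± 0.24 in WT, and Nuf2, another kinetochore gene, by 2.39 ± 0.60 at 12 weeks in AIM-KO (adjusted p = 0.009). From 12 to 20 weeks in AIM-KO, Kif22, Stmn1 and Incenp fell by 1.07 ± 0.22, 1.04 ± 0.24 and 0.93 ± 0.21.

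Of 18 inhibitors and brakes tested, 3 and 4 rose in WT and 5 and 3 in AIM-KO at 12 and 20 weeks, and none fell, where 3.52% and 8.72% of all genes rose in WT and 11.4% and 4.29% in AIM-KO. Cdkn1a (p21), an inhibitor of cyclin-dependent kinases, rose in all 4 comparisons, by 1.90 ± 0.47 and 2.28 ± 0.47 in WT and by 3.02 ± 0.47 and 1.75 ± 0.47 in AIM-KO (adjusted p = 0.022, 0.0028, 0.00022 and 0.029). Ccng1 (cyclin G1), a target of p53, rose by 0.89 ± 0.12 at 12 weeks in WT and by 1.19 ± 0.12 and 0.68 ± 0.12 in AIM-KO, and Rbl1 (p107), a partner of E2F repressors, by 1.04 ± 0.27 and 1.41 ± 0.27 in WT and 1.27 ± 0.27 at 12 weeks in AIM-KO. Cdkn2c rose by 1.21 ± 0.25 at 20 weeks in AIM-KO (adjusted p = 0.0064).

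Of 23 other cyclins, kinases and transcription factors of cycle entry, none was called at 12 weeks in WT, 1 rose and 2 fell at 20 weeks in WT, 3 rose and 1 fell at 12 weeks in AIM-KO, and none was called at 20 weeks in AIM-KO. These counts are near the background of 3.52% and 8.72% of all genes higher in WT and 11.4% higher in AIM-KO at 12 weeks, and of 5.77% and 6.78% lower at 20 weeks in WT and 12 weeks in AIM-KO. Ccne2 (cyclin E2) rose by 1.31 ± 0.35 at 20 weeks in WT, and Mybl1, a transcription factor of the Myb family, by 2.42 ± 0.40 at 12 weeks in AIM-KO (adjusted p = 0.018 and 0.00038). Tfdp2, a partner of E2F proteins, fell by 0.53 ± 0.17 at 20 weeks in WT and by 1.03 ± 0.17 at 12 weeks in AIM-KO.

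Markers of liver cell types were read on the same arrays. The summed intensity of 10 macrophage markers ranged over 2622.1 to 2810.4 on WT chow, 2939.3 to 4603.5 after 12 weeks and 4868.7 to 5060.0 after 20, and in AIM-KO 2481.6 to 3264.5, 5070.9 to 5799.4 and 2888.8 to 4105.8. Of these 10 genes, 2 and 7 rose in WT and 7 and 1 in AIM-KO at 12 and 20 weeks, and 2 fell from 12 to 20 weeks in AIM-KO. Of all genes 3.52% and 8.72% rose in WT and 11.4% and 4.29% in AIM-KO, and 2.12% fell between the durations in AIM-KO. The sum of 9 stellate and fibroblast markers was 2060.1 to 2450.0, 3216.8 to 4429.3 and 4464.0 to 5677.9 in WT, and 1924.5 to 2136.3, 3390.9 to 4065.6 and 2914.4 to 3671.7 in AIM-KO. Called higher against chow were 4, 8, 7 and 6 of the 9, beside the shares of all genes that rose given above. The sum of 9 hepatocyte markers was lowest in AIM-KO at 12 weeks, at 49277.1 to 52866.2 against 70861.8 to 74817.8 on chow, where 7 of 9 fell (6.78% of all genes). No marker of these 3 lists failed the filter.

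Over all 18 arrays the sum was 64.8 to 124.2 for 9 of 11 T and NK cell markers, of which Cd2, Cd4 and Ncr1 did not pass the filter, and 76.8 to 330.5 for 6 of 8 neutrophil markers, of which Camp did not. It was 173.8 to 784.7 for 7 of 8 B cell and plasma cell markers, where Ighm rose in 3 of 4 comparisons and Cd79a did not pass the filter. It was 34.8 to 82.6 for 5 of 7 bile duct markers, of which Cftr did not pass, and 1151.3 to 1787.0 for 8 of 8 endothelial markers. In AIM-KO, T and NK cell sums were 110.6 to 124.2 at 12 weeks against 79.8 to 83.7 on chow. Neutrophil sums there were 160.8 to 184.4 against 76.8 to 109.2. B cell and plasma cell sums were 425.4 to 493.2 against 173.8 to 328.9, and endothelial sums 1509.0 to 1741.7 against 1151.3 to 1291.2. In that order 1 of 6, 0 of 5, 1 of 6 and 2 of 8 tested genes were called higher (11.4% of all genes). Bile duct sums overlapped, as did all 12 weeks and chow sums of these lists in WT. The sum of 6 of 9 erythroid markers was 402.9 to 520.3 on chow and 146.0 to 341.5 on the diet. The ratio of the 3' to the 5' actin control, a sign of RNA quality, was 2.67 ± 0.13, 3 ± 0.69 and 3.46 ± 0.86 (SD, n = 3) for WT chow and the 2 diet durations, and 2.51 ± 0.22, 2.71 ± 0.30 and 2.51 ± 0.14 in AIM-KO. With that ratio as a term, 8 genes were called at 20 weeks in WT (Mcm2 to Mcm6, Pcna, Mki67 and Ccnd1), 9 at 12 weeks in WT and 21 at 12 weeks in AIM-KO, where 10.9%, 5.53% and 18.6% of all genes were called. The part of these cell types and of RNA quality in the changes of the cycle genes was not tested.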

How the data were processed

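Liver RNA of 18 samples, extracted with Trizol and labelled as biotin cRNA per the labels' protocols, was measured on Affymetrix whole-genome mouse arrays. The deposited values are intensities that the authors made with MAS5, per the submitters' processing notes. For MAS5 neither version nor scaling was stated in the sources used here. The platform annotation gives 34945 of 45101 probe sets 1 gene, 932 several and 9160 none, and 64 are controls; 34741 symbols were updated through a RefSeq table of GRCm38.p6, and promoters came from RefSeq. The probe set with the highest mean stood for its gene. A gene entered the test (14694 genes) if it was above the array's 40th percentile on 3 or more arrays.

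From the intensities, log2(intensity + 3.3) was computed, with 3.3 taken as the 20th percentile over the whole table, so changes of dim genes are understated. R 4.3.3 and limma 3.58.1 fitted 6 group means over the 18 arrays (lmFit, eBayes with a variance trend, Benjamini-Hochberg adjustment over all genes, 2-sided); the fit was tested on simulated data. Precision is limited by 3 arrays per group. The members and the gene lists were chosen with earlier results of these data known. Members were named by role; of each wider list, up to 3 called genes with the largest change per comparison could be named, and outside the lists the 10 genes that correlated best with the members. Alternatives covered the pseudocount, filter, normalization, probe set rule, variance model, samples fitted, terms for Xist status and actin ratio, replicate number as a block and leaving out each array; the rule that takes probe sets without shared names was chosen after seeing the data.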

Additional observations from a re-analysis of the deposited data

How the results depend on the processing

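With 3 arrays per group and many mitosis genes near the pseudocount, counts of called genes moved with single arrays. The share of all genes called moved with the setting too. At 12 weeks in WT it was 3.67% with no filter and 8.29% with the 60th percentile as filter. A count below that has no share of all genes beside it is therefore no result about these genes by itself. Leaving out 1 array at a time gave 3 to 11 called genes at 12 weeks in WT, 8 to 17 at 20 weeks in WT, 13 to 20 at 12 weeks and 2 to 5 at 20 weeks in AIM-KO. It gave 1 to 4 for 20 against 12 weeks in AIM-KO, 0 to 3 for AIM-KO against WT at 20 weeks and 0 to 2 for the genotype difference of the 20 week diet effect. The median change then ranged over 0.942 to 1.329 at 12 weeks in AIM-KO, -0.157 to 0.287 for AIM-KO against WT at 12 weeks, and -0.177 to 0.364 for the genotype difference of the 12 week effect. Replication minus mitosis ranged over 0.268 to 0.505 and 0.365 to 0.632 at 12 and 20 weeks in AIM-KO, 0.118 to 0.498 for 20 against 12 weeks in AIM-KO, and -0.551 to 0.161 and 0.126 to 0.706 for the genotype difference of the 12 and 20 week effects. For single called genes, 221 of these values kept their call and 103 kept only their direction.

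A pseudocount 4 times larger gave medians of 0.668 and 0.561 at 12 and 20 weeks in WT and 0.840 at 12 weeks in AIM-KO, and replication minus mitosis of 0.380 at 20 weeks in AIM-KO. Without a variance trend 8 genes were called at 12 weeks in WT and 2 for 20 against 12 weeks in AIM-KO. Fitting only the groups compared gave 5 and 8. No filter gave 2 for 20 against 12 weeks in AIM-KO, where 2.13% of all genes were called. With the 60th percentile as filter, replication minus mitosis was 0.201 at 12 weeks in AIM-KO, 0.500 for 20 against 12 weeks in AIM-KO and 0.114 for AIM-KO against WT at 20 weeks. The probe set rule chosen after seeing the data gave 0.510 at 12 weeks in AIM-KO and turned Cdca8 at 12 weeks in WT to -0.054; the mean of probe sets gave 0.0027. The actin ratio term gave 8 called genes and replication minus mitosis of 0.329 at 20 weeks in WT, and 2 called genes for 20 against 12 weeks in AIM-KO. The Xist term at 20 weeks in AIM-KO gave 1 called gene, where 1.34% of all genes were called. That gene was Tk1, lower (-2.02 ± 0.485, adjusted p = 0.048), while Mcm2 and Ccnd1 lost their calls. The median was then 1.03, replication minus mitosis 0.026 and E2f1 0.067. For 20 against 12 weeks in AIM-KO the Xist term gave 0 called genes, a median of -0.058 and a difference of 0.014. It moved the median of AIM-KO against WT at 20 weeks to -0.124, and the genotype difference of the 20 week effect to -0.174 with replication minus mitosis of 0.136. The cause was not tested. Over the alternatives other than leaving out arrays, values of called genes kept their call in 552 cases, kept only their direction in 91 and turned in 2.

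With the replicate number as a block, 12 and 13 genes were called at 12 and 20 weeks in WT, 21 and 2 in AIM-KO, and 3 for 20 against 12 weeks in AIM-KO. Deviations from group means of same-numbered arrays correlated at a mean of 0.04 over 45 pairs (-0.087 to 0.23), against -0.02 over 90 pairs of different number. Of 18 arrays, 11 correlated best with their own number, a hint from the data and not from the design. Because not every same-numbered pair correlated above 0, the block was kept as an alternative only.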

Other observations

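As a description with no test, the genes whose log2 level followed that of the cell cycle genes most closely over the 18 arrays were Acyp2 (Pearson r = 0.96), Fignl1 (0.955), Uap1l1 (0.939), Topbp1 (0.938) and Paqr7 (0.937), followed by Orm2, H2-DMa, Wwtr1, Ermp1 and Haus8 (0.935 to 0.926). Topbp1, Fignl1 and Haus8 are known from DNA replication, DNA repair and the mitotic spindle, Orm2 is an acute phase protein of hepatocytes and H2-DMa serves antigen presentation. All points share the 6 groups and their diets.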
